A study of Homo sapiens with 8 samples.

Results

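Of the 12939 named genes in the deposited table, 72 carried a symbol made of LINC and digits only, the systematic name given to long intergenic noncoding RNAs. All 72 were taken as members, and a symbol such as LINC-PINT was not. LINC RNAs are transcripts longer than those of the small RNA classes that hold no long reading frame, are usually spliced and capped like mRNAs, and lie outside protein-coding genes or antisense to them. Most are made at low levels and in few cell types. Some act on a neighbouring gene in cis, others bind proteins or other RNAs, and for many no function is known.

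The RNA came from MDA-MB-231, a human triple-negative breast cancer line of mesenchymal appearance, carrying a GFP reporter under the Oct4a promoter. The cells were stably transfected with a plasmid for scramble shRNA, for shRNA to CDH2 (N-cadherin, a calcium-dependent adhesion molecule) or for shRNA to Cx43 (connexin 43, encoded by GJA1, the main subunit of gap junctions), with RFP and puromycin resistance on the plasmid. The brightest GFP cells, called CSCs (cancer stem cells) in the study, were sorted for RFP as well, and 3 scramble, 3 CDH2 shRNA and 2 Cx43 shRNA libraries of ribosomal RNA-depleted total RNA were used. All groups thus shared the reporter, the plasmid backbone and the sort. For CDH2 the study chose 1 shRNA clone, clone B, and does not state whether that is a cell clone or an shRNA construct. An effect of that clone and the knockdown cannot be told apart in that group. The design asks which RNAs differ when either junction protein is reduced. CDH2 and GJA1 themselves were not analysed here, and no RNA value is therefore given for either target.

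Levels are given as deposited, as log2(CPM + 1), where CPM is the read count of a gene scaled to its library's total and the authors had removed a difference among sequencing replicates. Library depth is unknown, because counts were not used here. The deposited CPM summed to between 684411 and 727083 per library, and every gene reached 2 in at least 1 library, so an RNA kept for a single group was bound to be high there. All 10 markers of a mesenchymal line that were listed were measured, at 5.77 to 9.81. Of 12 luminal and epithelial markers, 4 were in the table (ERBB2, EPCAM, KRT8 and KRT18), at 2.21 to 8.78 and summing to 576 to 870 CPM per library, and 1 of 5 fibroblast, 0 of 3 blood and 1 of 2 endothelial markers were in it. Of 6 stem cell markers, 3 were in it (POU5F1, KLF4 and ALDH1A3). The replicates were not fully independent after the correction: over all genes, scramble replicate 1 departed from its group mean with an SD of 0.00644, against 0.139 for scramble replicate 2 and 0.138 for scramble replicate 3, and it was therefore nearly the mean of the other 2. Nothing in the labels says that replicates were separate cultures, and p-values measure the spread among these libraries only.

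Positions are GRCh38 and come from GENCODE. A single entry was found for 68 of the 72 RNAs, of which 67 were typed as lncRNA, on 20 chromosomes. The longest transcript ranged from 810 to 9678 bases with a median of 2888. Despite the name, 20 of the 68 overlapped the body of a coding gene, and 14 shared exon bases with a measured gene. As the library kit was not stated to mark strand, reads from such overlaps cannot be told apart. The median distance to the nearest coding gene was 7184 bases, and 39 lay within 10 kb of one. In 35 cases the nearest coding gene ran on the same strand, in 15 it overlapped on the opposite strand, in 12 the pair diverged and in 6 it converged. RefSeq keeps 62 of the 72 symbols and has renamed 10, among them LINC01578 (now CHASERR), LINC02085 (RDUR), LINC00346 (PRECSIT) and LINC00888 (SNHG33). For 11 members another locus held a copy at least 98% identical over 300 bases or more, and their values are uncertain.

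The start regions of some RNAs that moved are shown so that their promoters can be compared. In RefSeq (GRCh38.p14), 60 of the 72 members had a promoter window, running from 250 bases before the start to 50 bases after it. LINC01029 was not among them. Windows of 4 members with an adjusted p under 0.05 in the CDH2 comparison are printed 5′ to 3′ on the RNA's strand. Capitals mark matches, on either strand, to the TATA box (TATAAA), to the CCAAT box, to the AP-1 site (TGANTCA), to the E-box (CACGTG) or to the GC box (GGGCGG). The windows are LINC01411 (chr5:174336104-174336403, plus strand), LINC01123 (chr2:109986730-109987029, plus), LINC01224 (chr19:23416025-23416324, minus) and LINC00963 (chr9:129488410-129488709, plus).
LINC01411: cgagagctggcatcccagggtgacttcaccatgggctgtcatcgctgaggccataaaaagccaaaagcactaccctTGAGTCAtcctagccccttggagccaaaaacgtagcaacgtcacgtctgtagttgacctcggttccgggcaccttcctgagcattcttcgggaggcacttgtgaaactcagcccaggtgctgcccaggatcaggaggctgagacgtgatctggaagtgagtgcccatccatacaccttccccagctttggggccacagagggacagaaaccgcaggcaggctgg
LINC01123: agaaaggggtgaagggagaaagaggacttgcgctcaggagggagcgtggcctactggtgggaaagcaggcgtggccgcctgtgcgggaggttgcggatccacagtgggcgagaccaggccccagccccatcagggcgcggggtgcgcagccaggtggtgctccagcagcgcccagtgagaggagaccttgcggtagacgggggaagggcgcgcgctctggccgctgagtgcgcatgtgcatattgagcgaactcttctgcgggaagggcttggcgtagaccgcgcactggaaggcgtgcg
LINC01224: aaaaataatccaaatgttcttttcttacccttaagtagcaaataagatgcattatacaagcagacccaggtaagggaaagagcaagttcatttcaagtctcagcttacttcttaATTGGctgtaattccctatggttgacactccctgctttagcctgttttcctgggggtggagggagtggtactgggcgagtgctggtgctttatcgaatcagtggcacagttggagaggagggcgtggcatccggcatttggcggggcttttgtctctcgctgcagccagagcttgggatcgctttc
LINC00963: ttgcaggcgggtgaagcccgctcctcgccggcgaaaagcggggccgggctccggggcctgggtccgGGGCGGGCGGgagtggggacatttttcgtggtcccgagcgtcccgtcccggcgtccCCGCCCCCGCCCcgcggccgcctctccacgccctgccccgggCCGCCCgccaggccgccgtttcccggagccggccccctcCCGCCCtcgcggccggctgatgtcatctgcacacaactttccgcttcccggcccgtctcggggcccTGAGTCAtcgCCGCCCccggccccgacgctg
The LINC01411 window held 1 AP-1 match, which began at base -174 relative to the start, and the LINC01224 window 1 CCAAT match at base -136. The LINC01123 window held none of the 5 motifs, and the LINC00963 window held 8 matches, 7 of them GC boxes and 1 an AP-1 match at base 20 after the start. Among the 60 member windows, the AP-1 site occurred in 10 (16.7%), against 7.76% of all 27305 windows. The CCAAT box occurred in 45.0% against 35.7%, the GC box in 51.7% against 44.6%, the TATA box in 11.7% against 12.0% and the E-box in 6.67% against 7.43%. These are letter matches only, and no binding was measured. The 27305 windows were not restricted to noncoding or measured genes, so the shares come from unlike sets of genes. TGANTCA takes any base at its middle letter.

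The LINC RNAs had low values in every group, on a scale that is not corrected for length. Averaged over the 8 libraries their levels ran from 1.09 to 4.65 with a median of 2.77, while the median of all genes was 4.70, and all 72 lay below it. Their median sat at percentile 15.4 of all genes. In single libraries the lowest value was 0.63 and the highest 4.88. In CPM the mean per RNA was 1.27 to 24.4 with a median of 5.85, and the 72 together made up 471 to 525 CPM per library, or 0.0669 to 0.0737% of the deposited CPM. Scramble (491 to 505 CPM) overlapped both knockdowns in that total. The CDH2 shRNA libraries (471 to 496 CPM) lay just below the Cx43 shRNA libraries (497 and 525 CPM). As a percent of the deposited CPM all 3 groups overlapped.

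Not corrected for length, the 5 highest mean levels belonged to LINC01578, LINC00205, LINC00963, LINC00511 and LINC01806. LINC01578, whose current name CHASERR is that of an RNA known to restrain its neighbour CHD2 in cis, averaged 28.3 ± 0.0777 CPM in scramble (SD, n = 3). LINC00511, studied as a growth-promoting RNA in breast cancer, averaged 17.9 ± 0.377 CPM (SD, n = 3). Levels of different RNAs are comparable only per length. Per kilobase of the longest transcript, LINC01943 stood at 11.4 ± 1.07 CPM in scramble and LINC01578 at 10.5 ± 0.0290 (SD, n = 3), which do not differ beyond their spread. The value of LINC01943 is uncertain, since it shares 405 exon bases with the measured gene CYTOR and has a copy 99.1% identical over 559 bases. LINC00339 (6.52 ± 0.257), LINC01356 (6.09 ± 1.13) and LINC01638 (6.07 ± 0.761) followed, again within each other's spread, and LINC00452 was lowest at 0.201 ± 0.00936 CPM per kilobase. The lowest mean log2 levels over the 8 libraries were those of LINC00452, LINC00337 and LINC02085.

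The groups whose libraries reached 2, the level every gene in the table reached somewhere, varied for some members. Of the 72, 47 were at 2 or above in all 8 libraries. A further 13 reached 2 in libraries of 1 group only. These were 6 for scramble (LINC00337, LINC00472, LINC01124, LINC01232, LINC01411 and LINC01615), 2 for CDH2 shRNA (LINC00261 and LINC01270) and 5 for Cx43 shRNA (LINC00452, LINC01511, LINC01521, LINC01836 and LINC02085). Those RNAs entered the table through that group, and a difference in its direction was to that extent bound to appear. This holds for all 13 in the counts and values below, LINC01411, LINC01124, LINC01232 and LINC01521 among them. Other members missed 2 in every library of 1 group, and the same limit holds for comparisons with that group. LINC00460, LINC00624 and LINC00909 missed it in scramble, LINC00702, LINC00842 and LINC01605 in Cx43 shRNA, and LINC01426 in CDH2 shRNA.

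**Figure D1:**
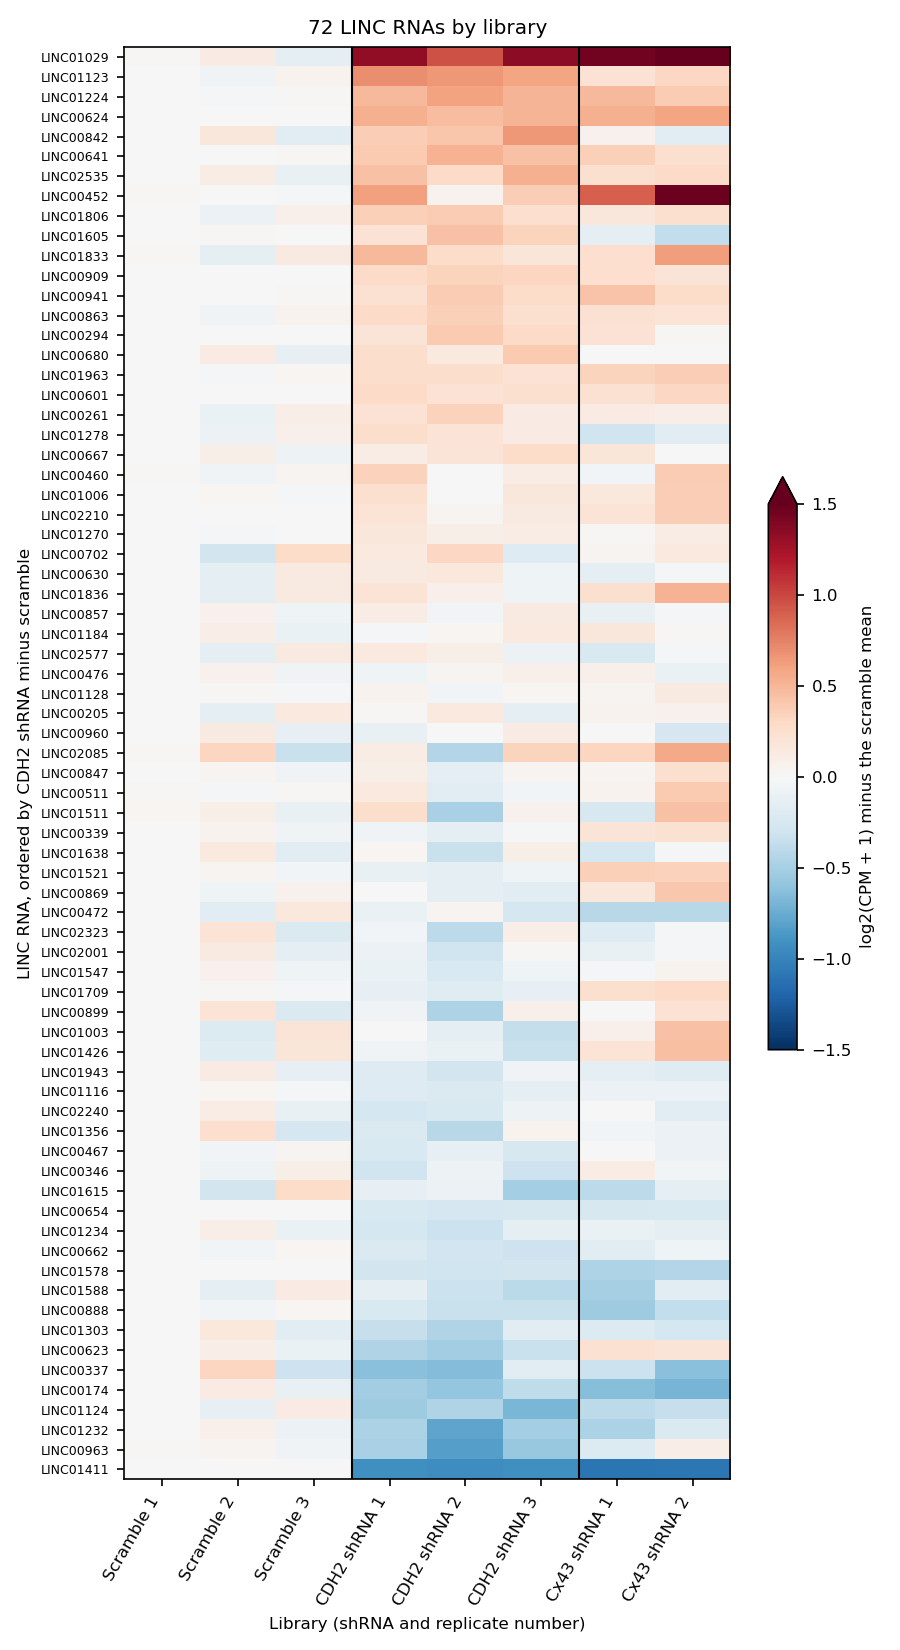
Heat map of the 72 LINC RNAs (rows, ordered by the CDH2 shRNA minus scramble difference) in the 8 libraries (columns), coloured by log2(CPM + 1) minus the scramble mean. LINC01029 stands at the top with every knockdown library high, LINC01411 at the bottom with every knockdown library low, and the column of scramble replicate 1 is nearly blank.

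LINC01029 was higher in both knockdowns and LINC01411 lower in both, and they were the only members past the threshold in each comparison with scramble. Past the threshold means an adjusted p under 0.05 in limma (Benjamini-Hochberg over all 12939 genes) and a log2 fold change no smaller than 0.73 (CDH2 shRNA) or 0.58 (Cx43 shRNA), in either direction. With CDH2 shRNA 2 of 72 passed, where 2.06% of all genes did (0.866% higher and 1.20% lower). With Cx43 shRNA 2 of 72 passed, where 1.18% of all genes did (0.402% higher and 0.781% lower). Both counts were near the background.

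LINC01029 is a 23095-base locus on the minus strand of chromosome 18 (chr18:77970637-77993731), whose longest transcript has 2052 bases. The nearest coding gene, GALR1, a galanin receptor, lies 692737 bases away and was not measured. The level of LINC01029 was 2.13, 2.24 and 1.99 in the scramble libraries, 3.44, 3.08 and 3.46 in the CDH2 shRNA libraries, and 3.57 and 3.83 in the Cx43 shRNA libraries. Every knockdown library lay above every scramble library, and the CDH2 and Cx43 libraries did not overlap either. In CPM this was 3.35 ± 0.378 in scramble (SD, n = 3), 9.10 ± 1.45 with CDH2 shRNA (n = 3) and 12.0 ± 1.7 with Cx43 shRNA (n = 2). The log2 fold change was 1.21 with CDH2 shRNA (SE 0.15, limma adjusted p = 0.0199) and 1.58 with Cx43 shRNA (SE 0.18, limma adjusted p = 0.0349). CDH2 shRNA was 0.37 below Cx43 shRNA on the log2 scale (SE 0.18, limma adjusted p = 0.308), a difference that did not pass the test.

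LINC01411 lies on the plus strand of chromosome 5 (chr5:174336295-174532457), with a longest transcript of 2098 bases. NSG2, a neuronal endosome protein, is the nearest coding gene at 92794 bases and was not measured. Its level was 2.22 in each of the 3 scramble libraries, 1.30, 1.28 and 1.29 in the CDH2 shRNA libraries, and 1.13 and 1.14 in the Cx43 shRNA libraries. The groups were far apart and the libraries within a group almost identical. These values are after the authors' correction among sequencing replicates, so their small spread is not that of the read counts. Only 0.147% of all genes had a smaller spread within groups (0.00380, against a median of 0.0838 over all genes). In CPM the mean was 3.65 ± 0.00163 in scramble, 1.45 ± 0.00899 with CDH2 shRNA (SD, n = 3 each) and 1.19 ± 0.0117 with Cx43 shRNA (n = 2). The log2 fold change was -0.93 with CDH2 shRNA (SE 0.07, limma adjusted p = 0.0160) and -1.08 with Cx43 shRNA (SE 0.08, limma adjusted p = 0.0277). The difference between the knockdowns was 0.16 (SE 0.08, limma adjusted p = 0.335). LINC01411 reached 2 in scramble libraries only, so it was in the table through the group where it is high.

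The direction of both RNAs was the same in every alternative fit that held them, and neither was among the 75% of genes with the highest mean. Both calls in the CDH2 comparison were lost when the Cx43 libraries were left out (adjusted p = 0.0561 for each RNA), and the adjusted p over all alternatives ran from 0.000287 to 0.0934 for LINC01029 and from 0.000138 to 0.0836 for LINC01411. The calls in both comparisons were also lost without CDH2 shRNA replicate 1 or 2, without Cx43 shRNA replicate 1 or 2, or without scramble replicate 1, in fits that called 0 to 10 genes over the whole table. In the Cx43 comparison the adjusted p ran from 8.41e-12 to 0.34 for LINC01029 and from 1.95e-08 to 0.296 for LINC01411.

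**Figure D2:**
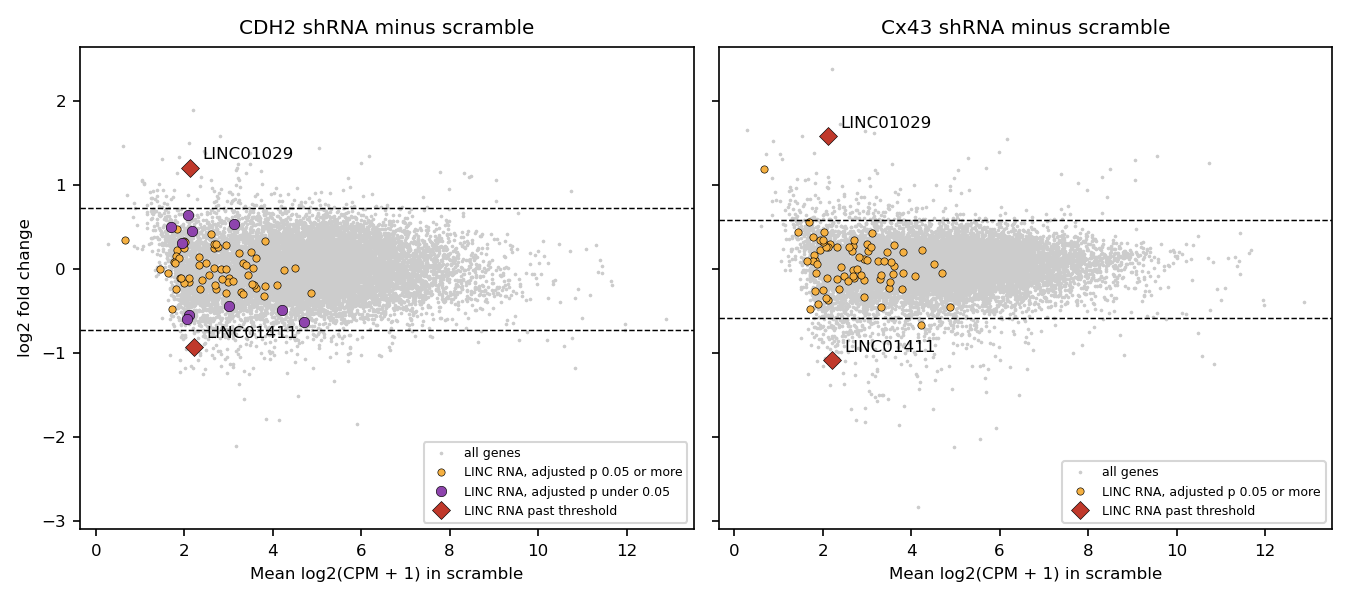
Log2 fold change of every gene (grey) and the 72 LINC RNAs (coloured) against the mean log2(CPM + 1) in scramble, for CDH2 shRNA (left) and Cx43 shRNA (right), with dashed lines at the fold threshold. LINC01029 (1.21 and 1.58) and LINC01411 (-0.93 and -1.08) are the members past the threshold, and the members sit at the low end of the level axis.

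With CDH2 shRNA, 12 of the 72 LINC RNAs had an adjusted p under 0.05 at any fold, where 14.3% of all genes did. Of the 12, 6 rose (7.29% of all genes did) and 6 fell (6.98% of all genes did). LINC01029, LINC01123, LINC01224, LINC00624, LINC00641 and LINC00909 rose, and LINC01411, LINC00963, LINC01232, LINC01124, LINC00174 and LINC00623 fell. The median log2 fold change of the 72 was -0.002, beside 0.007 over all genes. At an unadjusted p under 0.05 there were 29 members, where 37.5% of all genes passed.

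LINC01123 was at 2.08, 2.02 and 2.12 in scramble, 2.77, 2.72 and 2.67 with CDH2 shRNA, and 2.29 and 2.39 with Cx43 shRNA. The CDH2 libraries were the highest and the Cx43 libraries lay between them and scramble. Its log2 fold change was 0.65 with CDH2 shRNA (SE 0.08, limma adjusted p = 0.0199) and 0.26 with Cx43 shRNA (SE 0.10, limma adjusted p = 0.191). LINC01106 is 99.5% identical to it over 2256 bases, so reads of the pair may have been split.

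LINC01224, which lies 3626 bases from the zinc finger repressor gene ZNF91, was at 3.11, 3.09 and 3.13 in scramble, 3.59, 3.71 and 3.62 with CDH2 shRNA, and 3.60 and 3.49 with Cx43 shRNA. Both knockdowns lay above scramble. Its change was 0.53 with CDH2 shRNA (SE 0.08, limma adjusted p = 0.0225) and 0.43 with Cx43 shRNA (SE 0.09, limma adjusted p = 0.0920). LINC00624 showed a like order of values, at 1.69, 1.69 and 1.68 in scramble, 2.22, 2.15 and 2.20 with CDH2 shRNA, and 2.21 and 2.28 with Cx43 shRNA. Its change was 0.51 with CDH2 shRNA (SE 0.07, limma adjusted p = 0.0215) and 0.56 with Cx43 shRNA (SE 0.09, limma adjusted p = 0.0517). It shares 210 exon bases with CHD1L, a chromatin remodeller on the opposite strand. No scramble library of LINC00624 reached 2, so it was in the table through the knockdown groups where it is high.

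LINC00641, 2236 bases from HNRNPC, which encodes an RNA-binding protein of the nucleus, had scramble values of 2.16, 2.15 and 2.18, CDH2 shRNA values of 2.56, 2.68 and 2.60, and Cx43 shRNA values of 2.52 and 2.40. The groups did not overlap with scramble, and the change was 0.45 with CDH2 shRNA (SE 0.08, limma adjusted p = 0.0291) and 0.30 with Cx43 shRNA (SE 0.09, limma adjusted p = 0.159). LINC00909 (ZNF407-AS1) was at 1.94, 1.96 and 1.94 in scramble, 2.23, 2.28 and 2.27 with CDH2 shRNA, and 2.20 and 2.14 with Cx43 shRNA. It had the least rise of the 6, 0.31 (SE 0.07, limma adjusted p = 0.0446). LINC00909 too reached 2 in knockdown libraries only.

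Among the 6 that fell was LINC00963, an RNA studied in prostate cancer. It was at 4.72, 4.75 and 4.64 in scramble, 4.21, 3.88 and 4.13 with CDH2 shRNA, and 4.50 and 4.80 with Cx43 shRNA. All CDH2 libraries lay below scramble, while the Cx43 libraries spanned it. The change was -0.63 with CDH2 shRNA (SE 0.13, limma adjusted p = 0.0378) and -0.05 with Cx43 shRNA (SE 0.16, limma adjusted p = 0.881). In CPM, LINC00963 went from 25.1 ± 0.954 to 15.9 ± 1.99 (SD, n = 3 each) with CDH2 shRNA, and it was 24.3 ± 3.72 with Cx43 shRNA (n = 2).

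LINC01232 was at 2.07, 2.13 and 1.98 in scramble, 1.58, 1.27 and 1.55 with CDH2 shRNA, and 1.59 and 1.84 with Cx43 shRNA, a change of -0.60 (SE 0.13, limma adjusted p = 0.0395) and -0.35 (SE 0.15, limma adjusted p = 0.256). It shares 496 exon bases with TM9SF2 on the opposite strand. LINC01124, which starts 770 bases from SP5, a Wnt-responsive transcription factor gene, was at 2.11, 1.98 and 2.24 in scramble, 1.58, 1.67 and 1.43 with CDH2 shRNA, and 1.72 and 1.77 with Cx43 shRNA. All knockdown libraries of both RNAs lay below scramble, but both reached 2 in scramble libraries only and so were in the table through the group where they are high. LINC01124 changed by -0.55 with CDH2 shRNA (SE 0.11, limma adjusted p = 0.0347) and by -0.37 with Cx43 shRNA (SE 0.13, limma adjusted p = 0.184).

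LINC00174 had scramble values of 4.22, 4.33 and 4.10, CDH2 shRNA values of 3.69, 3.64 and 3.84, and Cx43 shRNA values of 3.58 and 3.52. The change was -0.49 with CDH2 shRNA (SE 0.10, limma adjusted p = 0.0376) and -0.67 with Cx43 shRNA (SE 0.12, limma adjusted p = 0.0674), and without the replicate block the second was past the threshold (adjusted p = 0.00311). LINC00174 shares 474 exon bases with the measured gene SKP1P1. LINC00623 was at 3.01, 3.11 and 2.91 in scramble, 2.56, 2.50 and 2.68 with CDH2 shRNA, and 3.24 and 3.21 with Cx43 shRNA. It was low with CDH2 shRNA and high with Cx43 shRNA, at -0.44 (SE 0.10, limma adjusted p = 0.0404) and 0.21 (SE 0.11, limma adjusted p = 0.337). Its sequence is 99.3% identical to LINC00869 over 1251 bases.

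The calls beyond LINC01029, LINC01411 and LINC01123 were lost when the residual degrees of freedom were counted as 2, the number of directions in which the corrected values still vary (3 members with an adjusted p under 0.05). Without the replicate block, 33 members had an adjusted p under 0.05, where 5607 of all 12939 genes did.

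**Figure D3:**
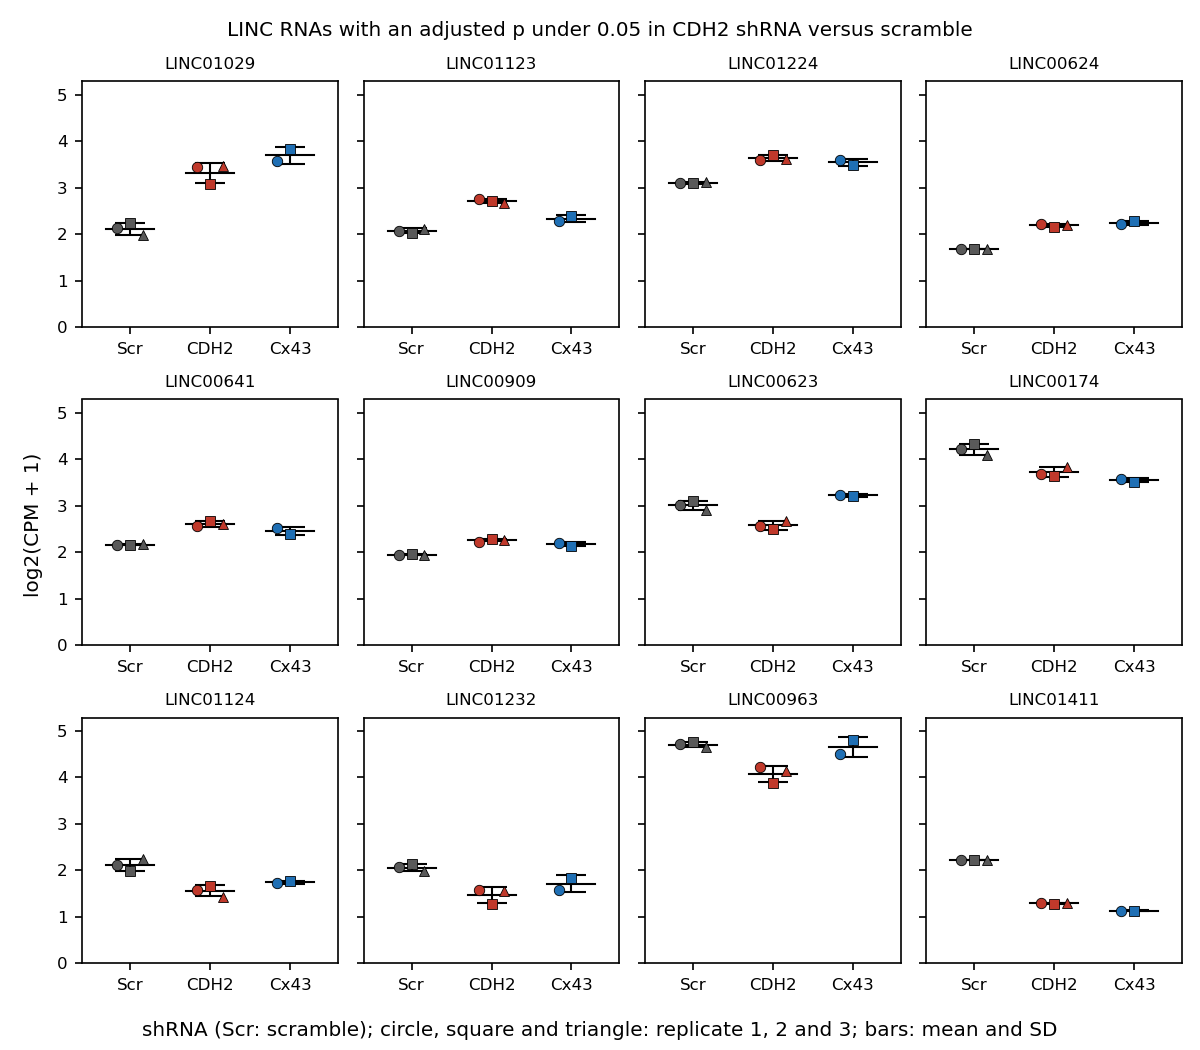
Level, log2(CPM + 1), of the 12 LINC RNAs with an adjusted p under 0.05 in the CDH2 comparison, in each library by shRNA, with symbols for the replicate number and bars for the mean and SD (n = 3, 3 and 2). The rising RNAs come first, LINC01411 shows almost no spread within a group, and LINC00623 and LINC00963 are lower with CDH2 shRNA than with Cx43 shRNA.

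By range alone, 23 of the 72 LINC RNAs lay above scramble in every CDH2 shRNA library (27.1% of all genes did), 18 lay below (24.8% of all genes) and 31 overlapped, where 51.9% of all genes did not overlap. Of the members outside the scramble range, the 8 with the most positive and the 8 with the most negative values were named, and those not yet described had no adjusted p under 0.05. LINC00842, a locus with a near-identical copy, was at 1.67 to 2.01 in scramble and 2.21 to 2.49 with CDH2 shRNA (log2 fold change 0.48, SE 0.14, limma adjusted p = 0.0681). LINC02535 was at 2.48 to 2.71 and 2.88 to 3.13 (0.42, SE 0.11, limma adjusted p = 0.0558). LINC00888 (SNHG33) lay at 3.28 to 3.36 and 2.99 to 3.10 (-0.30, SE 0.09, limma adjusted p = 0.0690), and LINC01588 at 2.81 to 3.06 and 2.53 to 2.81, which barely separated (-0.29, SE 0.14, limma adjusted p = 0.187).

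With Cx43 shRNA, LINC01029 and LINC01411 were also the only 2 members with an adjusted p under 0.05 at any fold, where 1.21% of all genes passed (0.417% higher and 0.788% lower). At an unadjusted p under 0.05 there were 21 members, beside 21.6% of all genes. The median log2 fold change was 0.076, beside 0.043 over all genes. By range, 28 LINC RNAs lay above scramble in both Cx43 shRNA libraries (31.4% of all genes did), 16 lay below (21.4% of all genes) and 28 overlapped, where 52.8% of all genes did not overlap.

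LINC00452 followed LINC01029 as the second largest rise with Cx43 shRNA but did not pass the test. Its values were 0.68, 0.66 and 0.63 in scramble, 1.27, 0.71 and 1.03 with CDH2 shRNA, and 1.56 and 2.14 with Cx43 shRNA. All scramble libraries lay lowest and the Cx43 libraries highest, with a wide spread in both knockdowns. The change was 1.19 with Cx43 shRNA (SE 0.24, limma adjusted p = 0.0831) and 0.34 with CDH2 shRNA (SE 0.21, limma adjusted p = 0.270). It reached 2 in 1 Cx43 shRNA library only, and in the fit without the replicate block it was past the threshold (adjusted p = 0.00704).

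The other members with the most positive values among those above scramble in both Cx43 shRNA libraries did not pass the test either, and LINC02085 and LINC01836 reached 2 in Cx43 shRNA libraries only. LINC02085 (RDUR, an RNA induced by viral infection) was at 1.11 to 1.75 in scramble and 1.76 to 2.01 with Cx43 shRNA (0.45, SE 0.31, limma adjusted p = 0.450). LINC01833 was at 1.88 to 2.15 and 2.28 to 2.65 (0.44, SE 0.18, limma adjusted p = 0.225), LINC01836 at 1.63 to 1.92 and 2.02 to 2.30 (0.38, SE 0.16, limma adjusted p = 0.237), and LINC01963 at 1.97 to 2.03 and 2.33 to 2.37 (0.35, SE 0.09, limma adjusted p = 0.107).

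On the low side with Cx43 shRNA, LINC01578 was at 4.87, 4.88 and 4.87 in scramble, 4.60, 4.57 and 4.59 with CDH2 shRNA, and 4.41 and 4.44 with Cx43 shRNA. Both knockdowns lay below scramble with almost no spread after the authors' correction, and neither passed the test. The change was -0.45 with Cx43 shRNA (SE 0.08, limma adjusted p = 0.0685) and -0.28 with CDH2 shRNA (SE 0.07, limma adjusted p = 0.0502). LINC00888 changed by -0.45 (SE 0.10, limma adjusted p = 0.0987), with 2.80 and 2.95 in the Cx43 shRNA libraries. LINC00337 (ICMT-DT) was at 1.39 to 2.03 in scramble and 1.08 to 1.39 with Cx43 shRNA (-0.47, SE 0.26, limma adjusted p = 0.353), and LINC00472, an RNA described as low in aggressive breast tumours, was at 1.74 to 2.05 and 1.48 to 1.49 (-0.42, SE 0.15, limma adjusted p = 0.189). The scramble libraries of LINC00337 were themselves widely spread. LINC00337 and LINC00472 reached 2 in scramble libraries only, so both were in the table through the group where they are high.

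In the direct comparison of the knockdowns, limma called 0 of the 72 LINC RNAs and 0 of all genes (0% of all genes) at an adjusted p under 0.05. At an unadjusted p under 0.05 there were 12 members, beside 20% of all genes. By range, CDH2 shRNA lay above Cx43 shRNA in 15 members (21.8% of all genes) and below in 20 (29.1% of all genes), and 37 overlapped, where 50.8% of all genes did not overlap. The median difference was -0.046, beside -0.030 over all genes. Without the replicate block, LINC00452 and LINC00623 were past the threshold of 0.58, where 360 of all 12939 genes were.

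For 5 members the knockdowns lay on opposite sides of all scramble libraries, where 4.78% of all genes did so (1.90% with CDH2 shRNA above and 2.88% with CDH2 shRNA below). LINC01605 and LINC01278 were high with CDH2 shRNA and low with Cx43 shRNA. LINC01605 was at 1.99, 2.01 and 1.99 in scramble, 2.21, 2.43 and 2.33 with CDH2 shRNA, and 1.87 and 1.62 with Cx43 shRNA, and LINC01278 was at 3.42 to 3.58, 3.62 to 3.77 and 3.20 to 3.34. LINC00623, LINC01521 and LINC01709 went the other way. LINC01521, 431 bases from the transcription factor gene PATZ1 and divergent from it, was at 1.93, 1.97 and 1.88 in scramble, 1.82, 1.79 and 1.87 with CDH2 shRNA, and 2.28 and 2.27 with Cx43 shRNA. LINC01709 was at 3.07 to 3.11, 2.90 to 2.97 and 3.33 to 3.38. The differences, CDH2 shRNA minus Cx43 shRNA, were 0.58 for LINC01605 (SE 0.12, limma adjusted p = 0.129), 0.43 for LINC01278 (SE 0.11, limma adjusted p = 0.154), -0.65 for LINC00623 (SE 0.11, limma adjusted p = 0.123), -0.45 for LINC01521 (SE 0.09, limma adjusted p = 0.124) and -0.41 for LINC01709 (SE 0.09, limma adjusted p = 0.128). None passed the test.

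**Figure D4:**
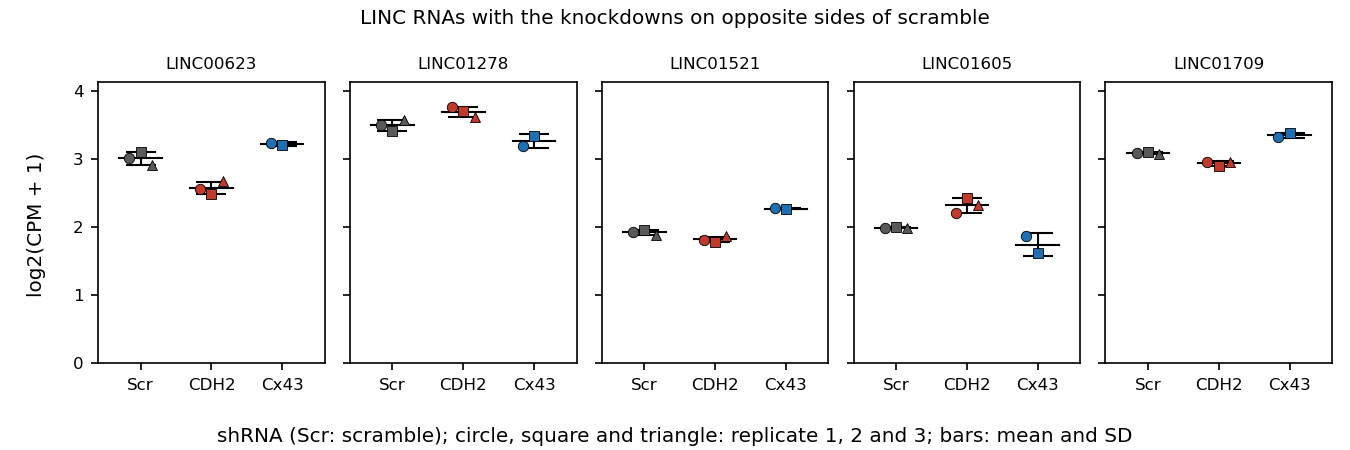
Level, log2(CPM + 1), of the 5 LINC RNAs whose CDH2 shRNA and Cx43 shRNA libraries lie on opposite sides of all scramble libraries, with symbols for the replicate number and bars for the mean and SD (n = 3, 3 and 2). LINC01278 and LINC01605 are high with CDH2 shRNA, and LINC00623, LINC01521 and LINC01709 are high with Cx43 shRNA.

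Other members with a large direct difference were LINC00452 (-0.84, SE 0.24, limma adjusted p = 0.168), LINC00963 (-0.58, SE 0.16, limma adjusted p = 0.157), LINC01426 (-0.49, SE 0.17, limma adjusted p = 0.205) and, on the positive side, LINC00842 (0.53, SE 0.16, limma adjusted p = 0.179), LINC01123 (0.38, SE 0.10, limma adjusted p = 0.149) and LINC00472 (0.31, SE 0.15, limma adjusted p = 0.305). LINC01426, which ends 2915 bases from RUNX1, was at no more than 1.95 with CDH2 shRNA, against 2.21 and 2.45 with Cx43 shRNA.

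A list of LINC RNAs studied in cancer had 16 of its 36 members in the table. With CDH2 shRNA, 1 of the 16 rose (LINC00641) and 1 fell (LINC00963) at an adjusted p under 0.05, beside 7.29% and 6.98% of all genes, and the median was -0.088, beside 0.007 over all genes. With Cx43 shRNA none of the 16 passed in limma, beside 1.21% of all genes, and the median was -0.048, beside 0.043 over all genes. At an unadjusted p under 0.05 there were 3 of the 16, beside 21.6% of all genes. LINC00511 was at 4.24 ± 0.0289 in scramble, 4.23 ± 0.149 with CDH2 shRNA (SD, n = 3 each) and 4.47 ± 0.241 with Cx43 shRNA (n = 2). LINC00460, linked to invasion in several carcinomas, was at 1.81 ± 0.0525, 1.96 ± 0.178 and 1.98 ± 0.298. LINC00857 was at 3.32 ± 0.0638, 3.39 ± 0.0963 and 3.25 ± 0.0696, and LINC00941 at 2.71 ± 0.0153, 3.01 ± 0.0764 and 3.06 ± 0.102. LINC00941 lay above scramble in every knockdown library without passing the test. By range, 4 of the 16 lay above scramble with CDH2 shRNA and 6 below, beside 27.1% and 24.8% of all genes. With Cx43 shRNA 3 lay above and 4 below, beside 31.4% and 21.4% of all genes.

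Of the 68 positioned RNAs, 50 had their nearest coding gene in the table. Across the 50 pairs the fold changes of the RNA and its neighbour correlated with Pearson's r of 0.200 with CDH2 shRNA, 0.159 with Cx43 shRNA and 0.365 between the knockdowns, and of 0.219, 0.181 and 0.323 over the 37 pairs whose RNA shares no exon bases with a measured gene. The pairs come from the same libraries and are not independent, and no p is given. With CDH2 shRNA, 7 of the 50 neighbours had an adjusted p under 0.05 (14.0%), beside 14.3% of all genes. Past the threshold was 1 of the 50 (2.0%) in each comparison with scramble. Over all genes 2.06% passed with CDH2 shRNA and 1.18% with Cx43 shRNA. With CDH2 shRNA it was PIK3CG, a lipid kinase catalytic subunit near LINC02577 (0.84, limma adjusted p = 0.0466). PIK3CG averaged 1.69 in scramble (SD 0.0913, n = 3) and 2.53 with CDH2 shRNA. No scramble library of PIK3CG reached 2, so it was in the table through the knockdown groups where it is high. With Cx43 shRNA it was ANXA8L1, a membrane-binding annexin near LINC00842 (-0.67, limma adjusted p = 0.0466). LINC02577 overlapped scramble with CDH2 shRNA, and LINC00842 overlapped scramble with Cx43 shRNA.

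The values of 5 further pairs, of which LINC01124 and LINC01224 had passed the test with CDH2 shRNA, went both ways. SP5, which diverges from LINC01124, changed by 0.21 with CDH2 shRNA (SE 0.11, limma adjusted p = 0.198), against -0.55 for the RNA. ZNF91 changed by 0.38 (SE 0.11, limma adjusted p = 0.0644), against 0.53 for LINC01224. CHD2, whose locus overlaps LINC01578, changed by -0.22 with Cx43 shRNA (SE 0.10, limma adjusted p = 0.283), against -0.45 for the RNA (limma adjusted p = 0.0685). LINC01578 and CHD2 share 121 exon bases on the same strand, so part of their reads cannot be told apart. PATZ1 changed by 0.53 with Cx43 shRNA (SE 0.09, limma adjusted p = 0.0550), against 0.35 for LINC01521 (SE 0.09, limma adjusted p = 0.113). SPIN4, which overlaps LINC01278, rose by 0.63 with CDH2 shRNA (SE 0.14, limma adjusted p = 0.0430), against 0.20 for the RNA (SE 0.09, limma adjusted p = 0.178).

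**Figure D5:**
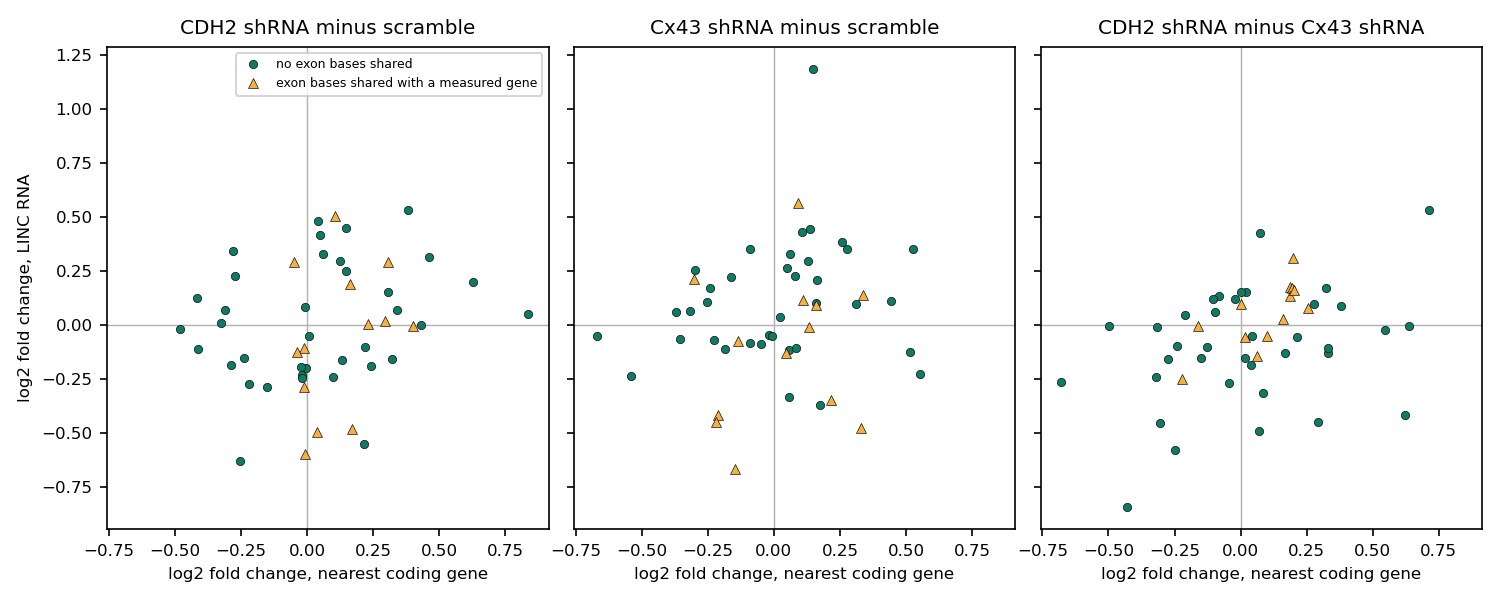
Log2 fold change of each LINC RNA (vertical axis) against that of its nearest measured coding gene (horizontal axis) for 50 pairs, in the 3 comparisons, with triangles for RNAs that share exon bases with a measured gene. The points form a loose cloud around 0 in each panel, and LINC00452 stands at the top of the middle panel.

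Other noncoding classes are given for comparison. Of 143 antisense genes (symbols ending in -AS and a digit), 1 rose and 1 fell past the threshold in each comparison with scramble, and of 19 SNHG genes, which host small nucleolar RNAs, 1 rose in each, beside 2.06% of all genes with CDH2 shRNA and 1.18% with Cx43 shRNA. None of 9 microRNA host genes passed in limma in either, with 3 and 2 of them at an unadjusted p under 0.05. Over all genes 37.5% and 21.6% were under that unadjusted p. At an adjusted p under 0.05 with CDH2 shRNA, 12.6% of the antisense genes, 15.8% of the SNHG genes, 0% of the microRNA host genes and 16.7% of the LINC RNAs passed, beside 14.3% of all genes. The classes were not tested against each other.

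A list of 12 long noncoding RNAs held MALAT1, NEAT1, KCNQ1OT1, MEG3, NORAD, SNHG1, GAS5, FTX, JPX, OIP5-AS1, TUG1 and MIAT. The 10 that were measured summed to 2150 to 2420 CPM in scramble, 1920 to 2150 with CDH2 shRNA and 1690 to 1780 with Cx43 shRNA. Their place in the cell was not measured, so the sum is not a measure of nuclear RNA. The sum of 13 mitochondrial genes was 4180 to 6890, 8140 to 14000 and 9060 to 16800 CPM. The Cx43 shRNA libraries were lowest in the first sum, and every knockdown library was above scramble in the second, and their part in the LINC results was not tested.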

How the data were processed

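Total RNA of sorted MDA-MB-231 cells (3 scramble, 3 CDH2 shRNA and 2 Cx43 shRNA libraries) was depleted of ribosomal RNA and sequenced by the authors, who aligned the reads to hg38 with STAR (2.6.1 in the submitters' processing notes), removed 1 low-quality sample and corrected a difference among sequencing replicates. The annotation used for counting is not given in the sources used here. The deposited values are log2(CPM + 1) per gene, as the authors made them, so no count test was run. A line without a gene name (1 line) was left out, and 12939 genes remained.

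Groups were taken from the sample labels. All 8 libraries were fitted with limma 3.58.1 (R 4.3.3) on group plus replicate number as a block, two-sided, with Benjamini-Hochberg adjustment over all genes. The fold thresholds were those of the study's methods, 1.66 for CDH2 shRNA and 1.5 for Cx43 shRNA, and 1.5 was also used between the knockdowns. The replicate number was kept as a block because sequencing replicates had been adjusted by the authors. After that adjustment, the deviations of same-numbered libraries cancelled to within 1e-04, so correlations between same-numbered libraries, -1 to 0.951, followed from the correction and were not read as pairing. The block left 3 residual degrees of freedom, of which the values vary in 2. The fit was also tried on simulated data with independent noise, which vary in all 3 residual directions. That trial therefore does not cover the missing direction of the deposited values.

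The members and lists were chosen with earlier results of these data known. Named were the members past the threshold, LINC01029, the 8 largest rises and falls among members whose knockdown libraries all lay outside the scramble range, the 5 highest and 3 lowest mean levels, the 5 largest direct differences each way among members whose groups did not overlap, and the cancer list. LINC01709, LINC00909 and the members named for their level per kilobase or the group in which they reached 2.00 were chosen after their values were seen, as were the neighbouring genes. The same holds for giving the values of LINC00460, LINC00857 and LINC00941 from the cancer list. Alternatives were no block, quantile normalization, median centring, a pseudocount of 0.1, the 75% of genes with the highest mean, a variance trend, other fold thresholds, only the groups compared, each library left out and, added after seeing the data, 2 residual degrees of freedom. Positions were from GENCODE 44, promoter windows from RefSeq, and copies from BLAST 2.17.0.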

Additional observations from a re-analysis of the deposited data

Results flagged for a closer look

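5 LINC RNAs had every CDH2 shRNA library on one side of all scramble libraries and every Cx43 shRNA library on the other. The difference, CDH2 shRNA minus Cx43 shRNA on the log2 scale, was tested in the direct limma comparison over all genes. It was -0.65 for LINC00623 (adjusted p = 0.123), 0.43 for LINC01278 (adjusted p = 0.154), -0.45 for LINC01521 (adjusted p = 0.124), 0.58 for LINC01605 (adjusted p = 0.129) and -0.41 for LINC01709 (adjusted p = 0.128). None passed the threshold, and 4.78% of all genes had the knockdowns on opposite sides. LINC00623 has a near-identical copy, and LINC01605 had several annotation entries and no single position.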

How the results depend on the processing

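Past the threshold with CDH2 shRNA, the count of LINC RNAs was 2, and it was 0 among the 75% of genes with the highest mean (18 members left), 5 with a pseudocount of 0.1, 0 with only the groups compared, 5 at a fold threshold of 1.5 and 1 at 2, and 0 to 3 with 1 library left out. With Cx43 shRNA it was 2, and 4 without the replicate block, 0 after the filter on the mean, 5 with only the groups compared, and 0 to 5 with 1 library left out. With a pseudocount of 0.1 or quantile normalization it was 3. Between the knockdowns it was 0, and 2 without the replicate block, 1 with only the groups compared, and 0 to 4 with 1 library left out.

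At an adjusted p under 0.05, the 12 members with CDH2 shRNA became 33 without the replicate block, 4 after the filter, 0 with only the groups compared, 3 with 2 residual degrees of freedom and 0 to 21 with 1 library left out. The 2 with Cx43 shRNA became 22 without the block, 0 after the filter, 16 with only the groups compared and 0 to 13 with 1 library left out. The 0 between the knockdowns became 14 without the block, 1 with only the groups compared and 0 to 12 with 1 library left out. Over all 12939 genes, the calls at an adjusted p under 0.05 went from 1846 to 5607 with CDH2 shRNA and from 156 to 3140 with Cx43 shRNA without the block. Between the knockdowns they went from 0 to 2784. With only the groups compared they were 0, 2807 and 559 in the same order. Past the threshold were 331, 532 and 360 genes without the block, and 0, 741 and 414 with only the groups compared. With a pseudocount of 0.1 there were 372, 175 and 0. Leaving out CDH2 shRNA or scramble replicate 3 gave the same fit, since the block absorbs the other library of that number. The fits without CDH2 shRNA or Cx43 shRNA replicate 1 or 2, or scramble replicate 1, called 0 to 10 genes in all.

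The median fold change moved from -0.002 to -0.121 with CDH2 shRNA and from 0.076 to -0.004 with Cx43 shRNA after the filter, which kept fewer members. With 1 library left out it ran from -0.080 to 0.040, from 0.010 to 0.10, and between the knockdowns from -0.094 to 0.009. Small changes turned sign. With quantile normalization, LINC02085 was 0.089 with CDH2 shRNA and LINC00842 was 0.026 with Cx43 shRNA. With 1 library left out, LINC00472 ran from -0.228 to 0.054, LINC01836 from -0.047 to 0.207 and LINC02085 from -0.333 to 0.354 with CDH2 shRNA, and LINC00842 ran from -0.220 to 0.123 and LINC00963 from -0.275 to 0.176 with Cx43 shRNA. The cause of these shifts was not tested beyond the number of genes and samples left. Depth is unknown, and the spread within groups was near that of all genes (median SD over the LINC RNAs 0.081, 0.110 and 0.081 in scramble, CDH2 shRNA and Cx43 shRNA, beside 0.096, 0.111 and 0.073).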
